A study of Mus musculus with 10 samples.

Results

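This report describes 10 genes of the NAIP and inflammasome pathway in mouse pancreatic tumors: Naip1, Naip2, Naip5, Naip6, Nlrc4, Nlrp3, Casp1, Il1b, Il18 and Gsdmd. They were taken by symbol from the 55359 genes of the deposited table of normalized counts, in which each gene's reads are divided by 1 size factor per tumor. The list was selected on the normalized counts of these same tumors, compared between the N and the T columns, so the differences of the 10 genes between the groups are given as a description, with their standard errors and no p-value, and how many of them passed the fit across all genes is counted once, with nothing read from it. All 10 genes had reads in every tumor and passed the filter on low values, which asked for an average normalized count of 1 or more.

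The tumors grew from KPC K8484 cells, a single murine pancreatic cancer line whose alleles include Trp53 R172H/+ and Pdx1-Cre, in which Cre is driven by the pancreatic Pdx1 promoter. The cells, which carried luciferase, were placed in the pancreas of C57BL/6 mice (C57BL/6 J in the study's methods), which were 10 weeks old at injection and kept their immune system, and the study's methods state that both sexes were used in equal number. Of the 10 tumors sequenced, 5 came from normoglycemic mice that were given regular water (CTRL) and 5 from mice that had 30% dextrose water for 14 days (D30). Each tumor is named below by its column, N1, N2, N4, N5 and N6 for CTRL and T1, T2, T4, T5 and T7 for D30, and no column could be tied to a single labelled animal.

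NAIP proteins are cytosolic sensors of bacteria. In the mouse, NAIP1 binds the needle protein and NAIP2 the inner rod protein of bacterial secretion systems, while NAIP5 and NAIP6 bind flagellin. A bound NAIP recruits the adaptor NLRC4, and the resulting inflammasome activates caspase-1, which cleaves the precursors of IL-1β and IL-18 and the pore-forming protein gasdermin D. NLRP3 is a sensor of a separate inflammasome that also acts through caspase-1. The NAIP-NLRC4 pathway is known from macrophages and from the epithelium of the intestine.

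Recovered reads ranged from 29915331 to 42122304 per CTRL tumor and from 29192261 to 37126175 per D30 tumor, and T5 had the fewest genes with a read, 20482. T4 stood apart from the other 9 tumors, as it alone had reads from the Y-linked genes Ddx3y, Eif2s3y, Kdm5d and Uty, 841 in all, against 0 elsewhere. The equal number of both sexes stated in the methods was thus not seen in the Y-linked reads of these tumors. The only tumor with such reads was in D30, and the part of sex in the values below was not tested. Values without T4 are given for only some of the genes and lists. A value printed alone may also have moved when T4 was left out. For example, the limma log2 difference of Smn1 went from 0.07 to -0.21 without T4. That of Birc6 went from -0.23 to 0.06. The epithelial keratins and Cdh1 were high in every tumor, while Epcam, another epithelial marker, ranged only from 0 to 191 normalized counts. Over 24560 tested genes the median log2 difference, D30 minus CTRL, was -0.07, and 2.76% of genes passed limma's test at an adjusted p under 0.05.

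The 4 NAIP genes lie side by side on the minus strand of chromosome 13, in a cluster of 309 kb (GRCm38). Naip1 spans chr13:100407764-100452869, Naip2 chr13:100144063-100202092, Naip5 chr13:100211739-100246323 and Naip6 chr13:100281121-100317674. Over the aligned coding bases Naip1 was 90.6% identical to Naip2, 92.1% identical to Naip5 and 91.2% identical to Naip6, while Naip5 and Naip6 were 97.0% identical to each other. Naip1 differed from all 3 paralogs at 158 of its 4212 coding positions. The stretch of 60 coding bases where those positions are densest follows, 5′ to 3′, because Naip1 reads from such a stretch can be told from those of its paralogs. Capitals mark its 22 positions where Naip1 differs from all 3 others. Naip5 and Naip6 have the same bases there and cannot be told apart by it. The stretch starts at coding base 2489 of Naip1, 2621 of Naip2 and 2492 of both Naip5 and Naip6 (GENCODE M21 transcripts).
Naip1: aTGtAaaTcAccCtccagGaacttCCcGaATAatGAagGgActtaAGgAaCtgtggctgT
Naip2: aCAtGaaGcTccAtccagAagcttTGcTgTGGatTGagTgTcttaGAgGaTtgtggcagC
Naip5: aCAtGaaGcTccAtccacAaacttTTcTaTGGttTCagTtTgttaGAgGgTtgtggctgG
Naip6: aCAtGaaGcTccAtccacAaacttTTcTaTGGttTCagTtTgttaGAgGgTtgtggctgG

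The bases before the RefSeq start of Naip1 and Naip2 (GRCm38.p6) are also shown, because these paralogs had the largest and the smallest difference between D30 and CTRL. Each line holds the 250 bases before the start, 5′ to 3′ on the minus strand, from chr13:100452865-100453114 for Naip1 and chr13:100202123-100202372 for Naip2. Capitals mark a match to the CDX motif TTTATNG, 53 bases before the Naip1 start.
Naip1 promoter: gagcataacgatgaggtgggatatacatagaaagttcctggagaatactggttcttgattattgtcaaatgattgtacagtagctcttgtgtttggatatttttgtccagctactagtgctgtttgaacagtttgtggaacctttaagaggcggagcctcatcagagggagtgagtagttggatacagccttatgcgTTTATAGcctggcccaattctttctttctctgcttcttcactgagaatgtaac
Naip2 promoter: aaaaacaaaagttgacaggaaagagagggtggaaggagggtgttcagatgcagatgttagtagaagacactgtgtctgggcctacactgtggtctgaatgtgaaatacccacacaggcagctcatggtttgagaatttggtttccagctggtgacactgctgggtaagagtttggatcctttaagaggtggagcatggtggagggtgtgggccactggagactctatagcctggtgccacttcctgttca

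In their aligned bases the Naip1 promoter was 67.1% identical to that of Naip2, 61.9% to that of Naip5 and 54.2% to that of Naip6. The Naip6 window, chr13:100316617-100316866, lies inside the span of Naip6 given above, and the Naip5 window, chr13:100247337-100247586, lies apart from that of Naip5. These windows may thus not match each other, and the identity of unrelated windows was not measured. Both strands were searched for 5 motifs: GAGGAAG (PU.1), TGANTCA (AP-1), GAAA followed after any 2 bases by GAAA (IRF/ISRE), TTTATNG (CDX) and CAAAGTCCA (HNF4). The CDX match was the only one in Naip1, and Naip2, Naip5 and Naip6 had none of the 5. The same window held a CDX match in 9.81%, PU.1 in 10.6%, AP-1 in 6.75%, IRF/ISRE in 2.98% and HNF4 in 0.384% of 32851 RefSeq promoters. Among the other members, Il1b had 1 CDX match 32 bases before its start, and 1 of the 2 Nlrp3 entries had PU.1 matches 130 and 36 bases before its start. Nlrc4, Casp1 and Il18 had no match, and Gsdmd had no entry. A match describes only the letters, and no binding was measured here.

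Naip1, the needle sensor, was close to silent in CTRL tumors and abundant in every D30 tumor. Its normalized counts in CTRL were 35.8 in N1, 31.1 in N2, 30.2 in N4, 21.2 in N5 and 54.8 in N6. In D30 they were 487 in T1, 2628 in T2, 4757 in T4, 964 in T5 and 1036 in T7. Every D30 tumor was above every CTRL tumor, and T2 and T4 were the highest. The CTRL values rested on 24 to 64 reads per tumor. The means were 34.6 ± 12.4 (SD, n = 5) and 1974 ± 1752 (SD, n = 5), a ratio of 57.1 and a log2 difference of 5.40 (SE 0.52). Without T4 the log2 difference was 4.97.

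Naip2, the inner rod sensor, was present in both groups with overlapping levels. Its normalized counts in CTRL were 1179 in N1, 716.4 in N2, 942 in N4, 903 in N5 and 941 in N6, and in D30 they were 1114 in T1, 1352 in T2, 1837 in T4, 716.6 in T5 and 926 in T7. The groups overlapped, with T4 the highest and N2 and T5 the lowest. The means were 936 ± 165 and 1189 ± 431 (SD, n = 5 each), and the log2 difference was 0.29 (SE 0.25), or 0.11 without T4.

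Naip5, a flagellin sensor, was higher in D30 without overlap, but by far less than Naip1. Its normalized counts were 866 in N1, 528 in N2, 815 in N4, 607 in N5 and 744 in N6, against 1020 in T1, 1513 in T2, 1455 in T4, 903 in T5 and 1010 in T7. The lowest D30 tumor, T5, was just above the highest CTRL tumor, N1. The means were 712 ± 142 and 1180 ± 282 (SD, n = 5 each), a log2 difference of 0.72 (SE 0.22), or 0.64 without T4. Naip6, the other flagellin sensor, had 542 in N1, 558 in N2, 611 in N4, 813 in N5 and 845 in N6, against 1140 in T1, 1304 in T2, 682 in T4, 824 in T5 and 684 in T7. Its groups overlapped, since only T1 and T2 were above all CTRL tumors. The log2 difference of Naip6 was 0.43 (SE 0.24), or 0.53 without T4.

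**Figure D1:**
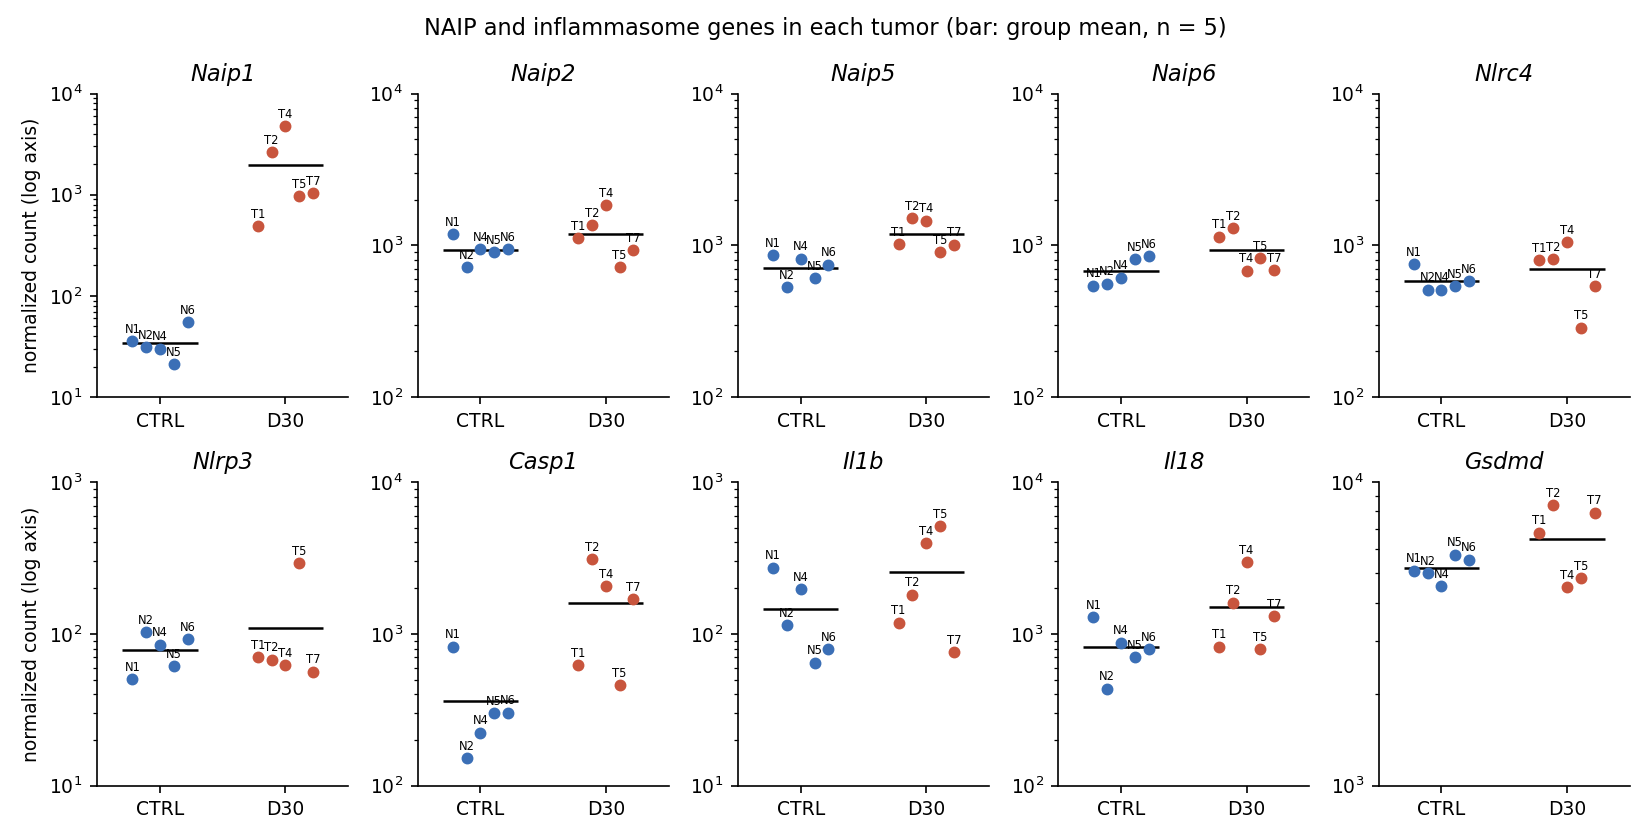
Normalized count of each of the 10 genes in each tumor (log axis; blue, 5 CTRL tumors N1 to N6; orange, 5 D30 tumors T1 to T7; bar, group mean). Only Naip1 and Naip5 separate the groups, and T5 stands alone for Nlrp3 at 291.9.

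The makeup of the NAIP family differed between the groups. Per kb of exon, Naip1 made up 1.44% ± 0.46 (SD, n = 5) of the summed level of the 4 paralogs in CTRL, with a range of 0.901% to 2.10%. In D30 it made up 32.1% ± 14.8 (SD, n = 5), from 12.9% in T1 to 53.1% in T4. The share of Naip2 was 44.3% in CTRL and 26.4% in D30, that of Naip5 31.3% and 25.3%, and that of Naip6 22.9% and 16.1%. These lower shares did not come with lower counts, as the sum of Naip2, Naip5 and Naip6 was 2322 ± 311 normalized counts in CTRL and 3296 ± 775 in D30 (SD, n = 5 each). The ratio of Naip1 to Naip2 counts ran from 0.0235 to 0.0582 in CTRL and from 0.438 to 2.59 in D30.

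**Figure D2:**
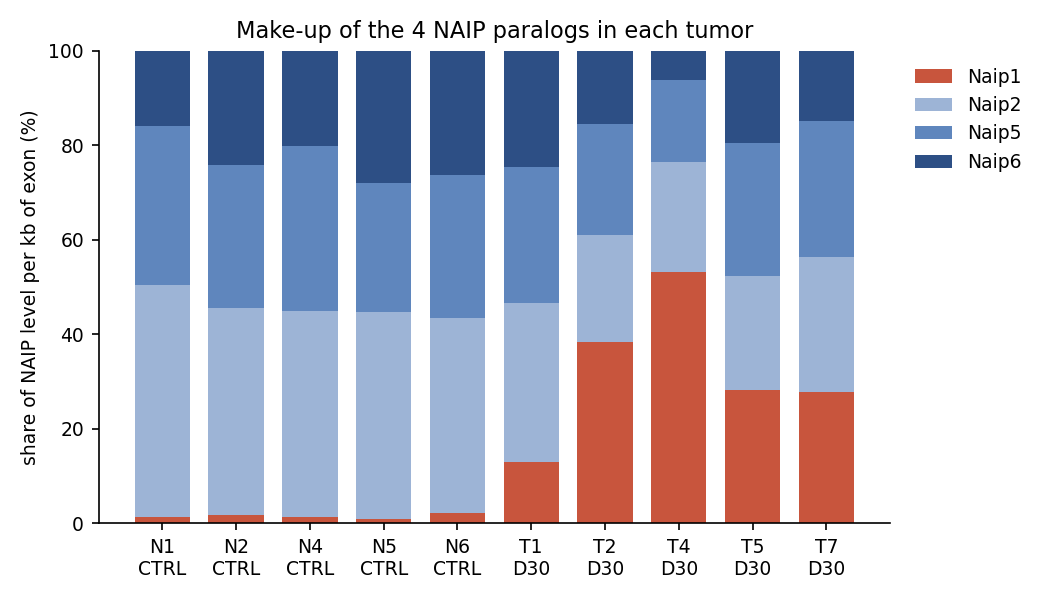
Share of each NAIP paralog in the summed per-kb level of the 4 genes (y axis, percent) in each tumor (x axis). Naip1 takes 0.901% to 2.10% in the CTRL tumors and 12.9% to 53.1% in the D30 tumors.

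Close paralogs can exchange reads in alignment, so the sequence that the family shares was measured. Of all windows of 150 bases, the length of 1 read, in the Naip1 exons, 4.96% occurred unchanged in another NAIP gene or pseudogene, nearly all of them (4.89%) in the pseudogene Naip3. The share was 0.537% for Naip2, 8.25% for Naip5 and 1.89% for Naip6. Naip3 itself shared 16.4% of its windows, 6.85% with Naip1, and its level is uncertain for that reason. Naip3 rose from 9.43 ± 2.44 to 46.7 ± 22.7 normalized counts (SD, n = 5 each; log2 difference 2.08, SE 0.43, limma adjusted p = 0.0221). Naip3-ps1, the other pseudogene, had a log2 difference of 0.75 (adjusted p = 0.265). The authors aligned with STAR at its default parameters and name RSEM, a program that divides reads with several matches among genes by an estimate, in their list of software, but whether RSEM made the counts of this table is not given in the sources used here.

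The genes on either side of the cluster were compared as well. Among the 3 nearest protein-coding neighbours on the Naip2 side, Smn1, whose product assembles splicing particles, had a log2 difference of 0.07 (limma adjusted p = 0.935). Serf1 had -0.13 (adjusted p = 0.863) and Bdp1, a part of the RNA polymerase III machinery, had -0.22 (adjusted p = 0.677). On the Naip1 side, Gtf2h2, a subunit of the transcription factor TFIIH, had -0.06 (adjusted p = 0.956) and Marveld2, a tight junction gene, had 0.05 (adjusted p = 0.952). Ocln, another tight junction gene between them, went from 652 ± 227 to 1666 ± 860 normalized counts (SD, n = 5 each), a log2 difference of 1.28 (SE 0.36) that missed the threshold (adjusted p = 0.0791). Ocln passed with DESeq2 (adjusted p = 0.00847) and in limma without T5 (1.53, adjusted p = 0.0274), and it had 1.03 in limma without T4 (adjusted p = 0.0639). With limma on all 10 tumors none of the 6 neighbours passed, and 5 of them lay between -0.22 and 0.07, as the plot of the cluster shows. Over 18 alternatives these 5 ran from -0.44 (Bdp1) to 0.30 (Marveld2), with 0 calls. Gtf2h2 had -0.41 without T4 (limma adjusted p = 0.195).

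**Figure D3:**
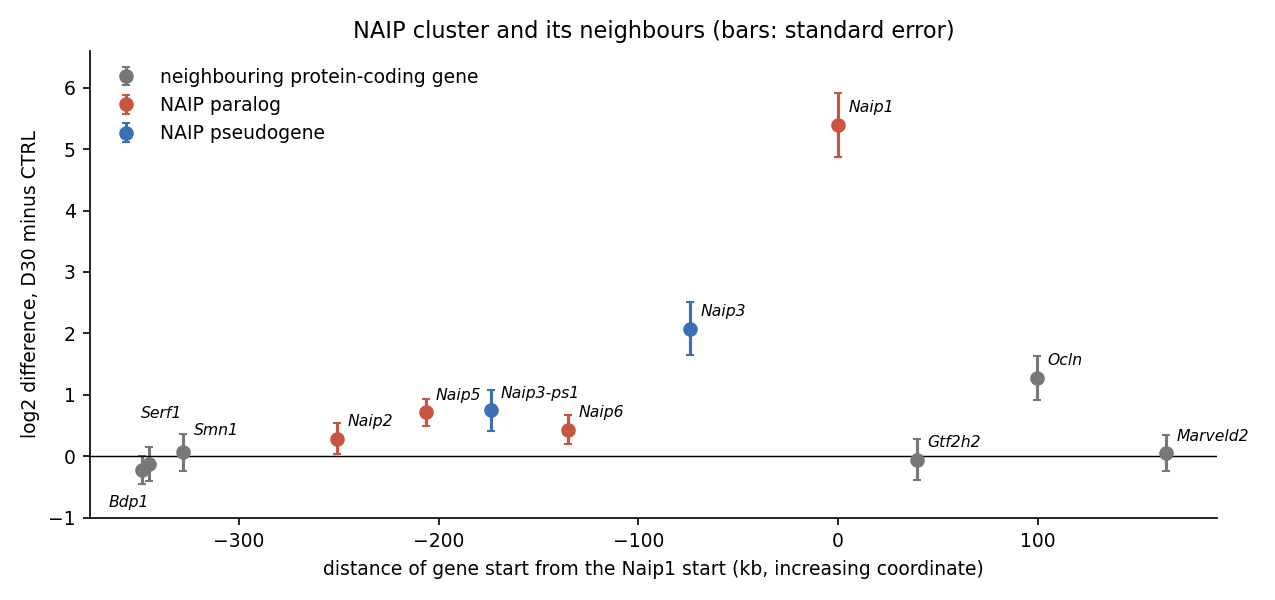
Log2 difference, D30 minus CTRL (y axis, bars are standard errors), against the distance of each gene's start from that of Naip1 in kb (x axis) for the NAIP paralogs, 2 NAIP pseudogenes and 6 neighbouring genes. Naip1 is at 5.40, Naip3 at 2.08 and Ocln at 1.28, and the other genes lie between -0.22 and 0.75.

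Nlrc4, the adaptor that the NAIP proteins share (chr17:74425438-74459142), overlapped between the groups. Its normalized counts were 755 in N1, 511.1 in N2, 510.7 in N4, 540.0 in N5 and 583 in N6, against 799 in T1, 814 in T2, 1051 in T4, 287 in T5 and 538 in T7. T4 was the highest and T5 the lowest of all 10 tumors. The log2 difference was 0.15 (SE 0.31), it was -0.03 without T4 and 0.44 without T5, and at library-size scaling it was -0.07, so that its direction depended on single tumors and on the scaling.

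Nlrp3 (chr11:59541568-59566956) was low in all tumors but T5. Its normalized counts were 50.5 in N1, 102.6 in N2, 84.97 in N4, 61.1 in N5 and 92.4 in N6, against 69.9 in T1, 67.6 in T2, 62.5 in T4, 291.9 in T5 and 56.5 in T7. The other 4 D30 tumors lay within the CTRL range. The log2 difference was 0.19 (SE 0.45), and it was -0.24 without T5 and 0.31 without T4. T5 also had the highest summed level of 10 neutrophil markers, 17659 normalized counts against 859 to 8921 in the other 9 tumors, and their part in the Nlrp3 value was not tested.

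Casp1, which encodes the protease that both inflammasomes activate (chr9:5298517-5307265), had the next largest difference after Naip1. Its normalized counts in CTRL were 822 in N1, 151 in N2, 223 in N4, 300.1 in N5 and 303 in N6, and in D30 they were 624 in T1, 3097 in T2, 2059 in T4, 461 in T5 and 1693 in T7. The groups overlapped, because N1 was above T1 and T5, while T2, T4 and T7 were above all CTRL tumors. The means were 360 ± 266 and 1587 ± 1085 (SD, n = 5 each), a ratio of 4.41 and a log2 difference of 2.05 (SE 0.54). It was 2.41 without T5 and 1.87 without T4. The ratio of Casp1 to Casp4, the gene of the inflammatory caspase of the noncanonical pathway, ran from 0.310 to 0.879 in CTRL and from 0.513 to 2.47 in D30, again with overlap.

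The substrates of caspase-1 differed less. Il18 (chr9:50554827-50581840) had 1290 in N1, 435 in N2, 875 in N4, 698 in N5 and 794 in N6, against 823 in T1, 1604 in T2, 2967 in T4, 796 in T5 and 1308 in T7. Only T2, T4 and T7 were above all CTRL tumors, and the log2 difference was 0.78 (SE 0.37), or 0.49 without T4. Il1b (chr2:129364570-129371139) had 272 in N1, 113 in N2, 196 in N4, 64.6 in N5 and 79.6 in N6, against 118 in T1, 181 in T2, 396 in T4, 514 in T5 and 75.6 in T7. T4 and T5 were above all CTRL tumors and T7 was near the lowest, with a log2 difference of 0.68 (SE 0.55), which was 0.43 without T4 and 0.34 without T5. Gsdmd (chr15:75862327-75867408) was the most abundant of the 10 genes per kb and in CTRL the one that varied least, with 4528 to 5760 normalized counts in CTRL and 4495 to 8397 in D30. Its log2 difference was 0.28 (SE 0.21), or 0.40 without T4, with T1, T2 and T7 above and T4 below all CTRL tumors.

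Some of these genes overlap others on the map, and counting by strand is not stated in the sources used here. Il18 overlaps Bco2 on the other strand, which had 166 to 701 normalized counts, and Il1b overlaps the antisense gene Il1bos, which had 10.1 to 152. The libraries keep the strand, and only a count made without it would mix the reads of such pairs where they overlap. The gene that overlaps Naip1, Rpl31-ps13, had at most 11.5 normalized counts.

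Over the 10 genes, 1 passed the threshold of an adjusted p under 0.05 as higher in D30 (Naip1), where 1.4% of all tested genes did so. A further 9 did not pass, and 2 of the 10 (Naip1 and Naip5) were higher in D30 with groups that did not overlap. Among tested genes 6.19% had groups that did not overlap, 2.87% higher and 3.32% lower in D30. As the genes were chosen with this contrast in view, nothing is read from these counts. All 10 log2 differences were above 0, with a median of 0.55, while 45.3% of tested genes were above 0. At library-size scaling, which moved the median of all genes to -0.27, Nlrc4 (-0.07) and Nlrp3 (-0.03) were below 0. The spread, as highest over lowest tumor, was wider in D30 than in CTRL for 10 of the 10 genes, and so it was for 87.4% of the 17386 tested genes with reads in every tumor.

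Per kb of exon the order of mean levels in CTRL was Gsdmd (2184 normalized counts per kb), Il18 (794), Casp1 (240.3), Naip2 (193), Naip5 (137), Nlrc4 (121), Naip6 (98.7), Il1b (76.2), Nlrp3 (19.3) and Naip1 (6.25). Naip1 was below Nlrp3, and Nlrp3 below Il1b, without overlap of their tumors, and Gsdmd was above Il18 in the same way, while the other neighbours in this order overlapped. In D30 Naip1 stood at rank 4, with 357 per kb, after Gsdmd (2730), Il18 (1454) and Casp1 (1060.0). The other levels in D30 were 245 for Naip2, 227 for Naip5, 145 for Nlrc4, 136 for Naip6, 135 for Il1b and 27.0 for Nlrp3.

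Inside the groups the 10 genes also varied from tumor to tumor. Over the 10 tumors, the deviations of Naip2 from its group mean had a Pearson r of 0.91 with those of Nlrc4, 0.88 with Il18 and 0.86 with Naip5. Casp1 and Il18 had an r of 0.83. Of the members, Naip1 was most like Il18 (0.75), Naip5 (0.69) and Naip2 (0.65), while its r with Naip6 was -0.15. Among 17360 genes compared with Naip1 in this way, Il18 was at rank 456, Naip5 at 1123 and Naip2 at 1643, so many genes outside the pathway were closer. Nlrp3 ran the other way, with -0.83 to Nlrc4 and -0.73 to Casp1, and Il1b had -0.78 to Gsdmd. All these points share the same 10 libraries and their size factors, T4 and T5 among them, and the values are given as a description.

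**Figure D4:**
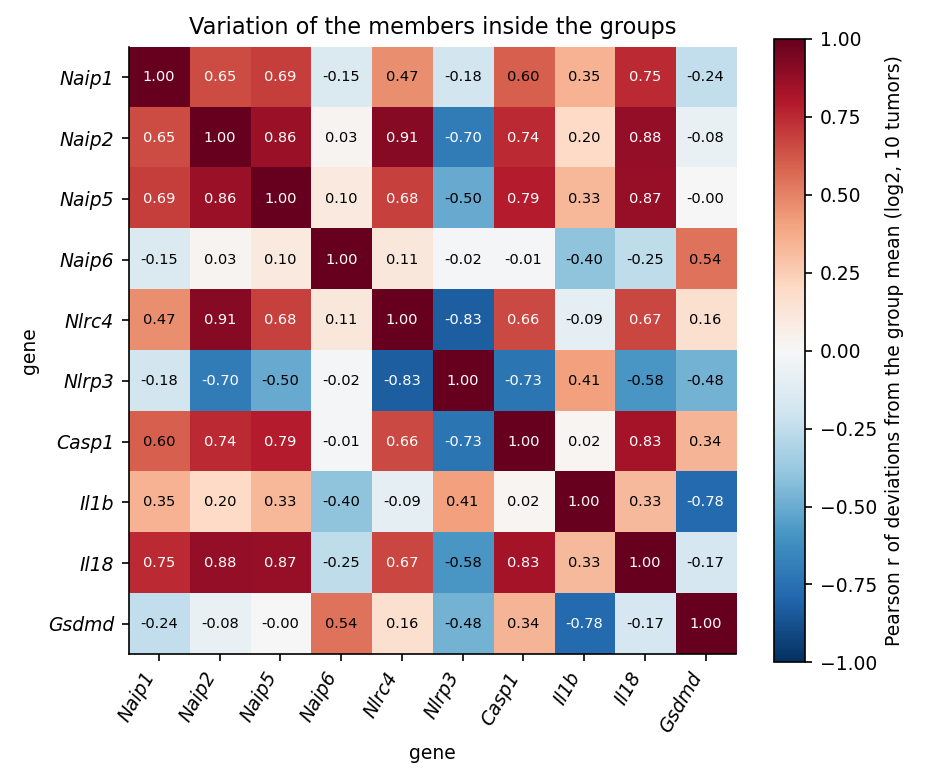
Pearson r between the deviations of each pair of the 10 genes from their group means (log2 scale, 10 tumors; color and number give r). Naip2, Naip5, Nlrc4, Casp1 and Il18 have r of 0.66 to 0.91 with each other, and Nlrp3 is negative to all of them.

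The genes whose pattern was most like Naip1 were sought among the 17360 genes that averaged 10 or more normalized counts. Over the 10 tumors, groups included, these were Krtcap3 (r of 0.98), Cpped1 (0.98), Hsd17b2 (0.98), Ydjc (0.98) and Ppm1j (0.98). Of the other members Naip5 came nearest, at rank 212 (0.88), followed by Casp1 at rank 504 (0.83). These ranks include the group difference, on which the members were chosen, so nothing is read from them. By deviations from the group means, Naip5 was at rank 1123 (0.69) and Casp1 at rank 2580 (0.60). With the group means removed, the nearest were Duoxa1 (0.98), a maturation factor of a dual oxidase, Gm44616 (0.97), Ntn4 (0.95), which encodes a netrin, Rnase2a (0.95) and Gm19196 (0.94). Duoxa1 had 5.31 to 8.56 normalized counts in CTRL and 7.20 to 33.5 in D30, so it was low throughout. Rnase2a (0 to 81.0 over all tumors), Gm19196 (6.17 to 41.6) and Gm44616 (30.8 to 83.3) were low as well, while Ntn4 had 224 to 736.

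Beyond the 10 genes, 53 others of the pathway were listed by role, and 52 of them were tested, Gsdmc being at 0 in all tumors. Of these, 3 rose in D30, 0 fell and 49 did not pass (limma, adjusted over all tested genes), which is 5.77% called against 2.76% of all genes. At an unadjusted p under 0.05 there were 12 of the 52, against 17.3% of all genes. The median log2 difference of the list was 0.13, or 0.02 without T4 and -0.09 at library-size scaling, where 3 genes were called higher and 3 lower (Nlrp1b, P2rx7 and Casp12).

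The 3 that rose had 3 different roles. Txnip, whose product binds thioredoxin and has been described as a partner of NLRP3, went from 8766 ± 1945 to 29966 ± 13768 normalized counts (SD, n = 5 each; log2 difference 1.67, SE 0.31, limma adjusted p = 0.0123). Il1a, the gene of a cytokine that binds the same receptor as IL-1β, went from 70.2 ± 26.5 to 195 ± 77.2 (1.46, SE 0.34, adjusted p = 0.0352). Tnf, a priming cytokine, went from 54.3 ± 14.7 to 163 ± 54.4 (1.54, SE 0.33, adjusted p = 0.0256). Txnip passed in 18 of 18 alternative settings, Tnf in 13 and Il1a in 11. Tnf missed the threshold without N2, N5, N6, T1 or T2 (adjusted p up to 0.0892), and Il1a without N1, N2, N5, N6, T1, T2 or T7 (adjusted p up to 0.116). With DESeq2 9 genes of the list passed, 7 of them higher, and with edgeR 4 passed, all higher. Without T4, 8 genes of the list passed, 6 of them higher. Beside the 3 above these were Nlrp10 (3.16, adjusted p = 0.00636), Tnfaip3 (0.86, adjusted p = 0.00626), P2rx7 (-0.89, adjusted p = 0.0307), Casp12 (-1.23, adjusted p = 0.0193) and Nlrp6, which is outside the naming rule and is named after its values were seen. In turn, without N2, N5, N6, T1 or T2 the 1 gene that passed was Txnip.

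By role, the 7 other sensors had a median log2 difference of 0.06 and no call in either direction. Nlrp10 had the largest difference among them, 2.48 (adjusted p = 0.108), while Nlrp1b had -1.17 (adjusted p = 0.0985) and Nlrp1a had -1.96 (adjusted p = 0.162). The 7 assembly partners had a median of 0.14, and beside Txnip, the ATP-gated channel P2rx7 had -0.81 (adjusted p = 0.0956) and the channel Panx1 had -0.54 (adjusted p = 0.321). The 10 tested caspases and executors had a median of 0.32 with no call, Casp12 having -1.04 (adjusted p = 0.100), Casp8 0.38 (adjusted p = 0.380) and Ninj1, whose product ruptures the membrane of dying cells, 0.41 (adjusted p = 0.397).

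The 10 cytokines, decoys and receptors had a median of 0.38. Beside Il1a, the IL-18 receptor gene Il18r1 had 1.21 (limma adjusted p = 0.139) and the decoy receptor gene Il1r2 had 1.36 (adjusted p = 0.329). The 13 priming and transcription genes had a median of 0.12, and the NF-κB inhibitors Tnfaip3 and Nfkbia had 0.70 (adjusted p = 0.101) and 0.81 (adjusted p = 0.132). The 5 other genes with a BIR domain, the domain that NAIP proteins share with inhibitors of apoptosis, had a median of -0.16 and no call, with Birc3 at -0.16 (adjusted p = 0.687), Birc6 at -0.23 (adjusted p = 0.751) and Birc5 at -0.22 (adjusted p = 0.797).

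**Figure D5:**
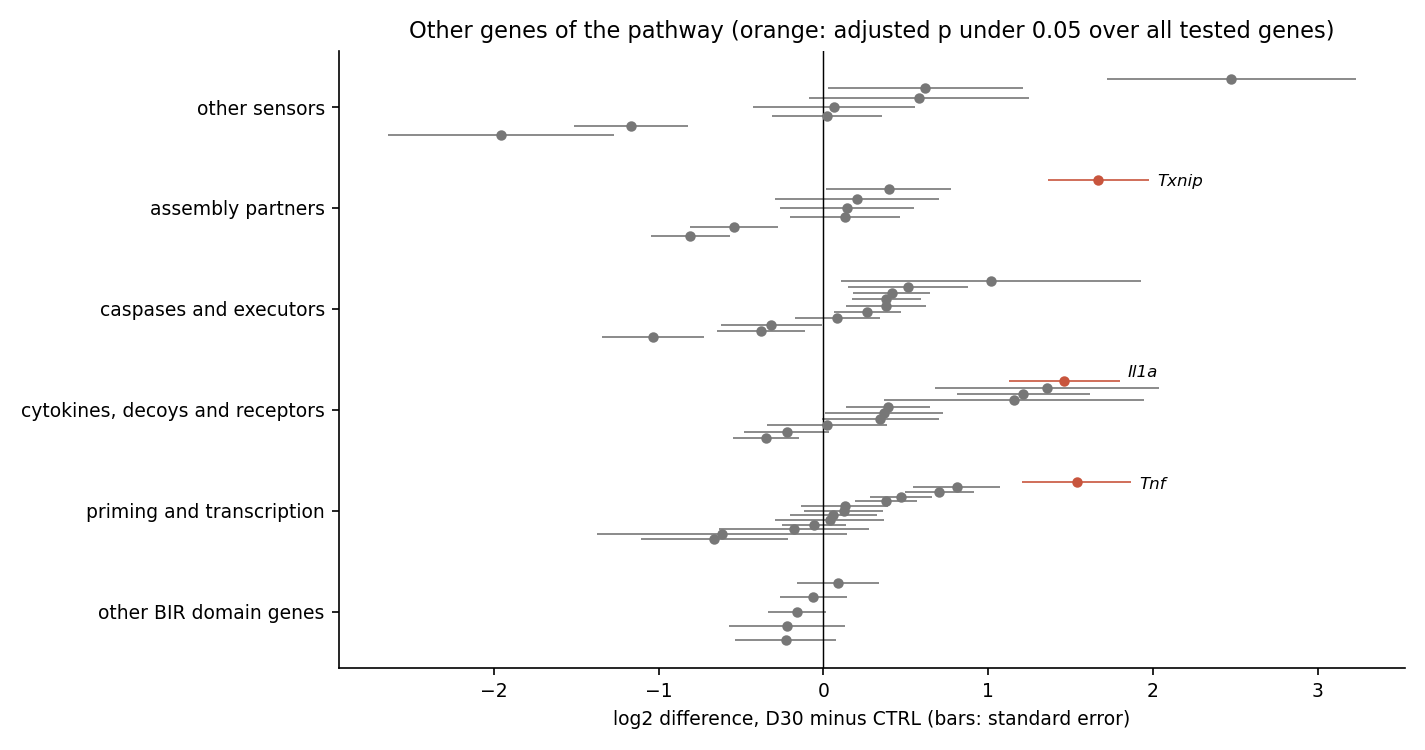
Log2 difference, D30 minus CTRL (x axis, bars are standard errors), of the 52 tested genes of the wider pathway list, in rows by role. The 3 genes in orange, Txnip at 1.67, Il1a at 1.46 and Tnf at 1.54, passed the test over all genes.

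The tumors are mixtures, so 6 lists of cell type markers were measured beside these genes. Not all of the lists are of cell types known to use the genes. In bulk RNA, fewer cells of a type and less RNA per cell cannot be told apart. The 12 macrophage and monocyte markers summed to 33728 to 66544 normalized counts in CTRL and 18326 to 77142 in D30, where T4 was the highest and the other 4 D30 tumors were at 26315 or less. The difference of their summed level missed the threshold of the exact permutation test (log2 difference -0.62, two-sided p = 0.190, adjusted over 6 lists 0.229), 9 of 12 were lower in D30, and Csf1r, the receptor for a macrophage growth factor, was the 1 that fell (limma log2 difference -1.06, adjusted p = 0.0449). The log2 difference was -0.98 without T4 (exact permutation test, adjusted p = 0.0238). Lyz2 made up much of the sum in T4, at 46217 normalized counts. Cd68, Itgam, Cd14 and C1qb were also highest in T4, while Csf1r was lowest there, at 693. The 10 neutrophil markers summed to 859 to 4491 in CTRL and 1397 to 17659 in D30 (1.57, exact p = 0.0794, adjusted 0.119), with 10 of 10 higher and none past the test by itself. The 8 dendritic markers summed to 341 to 588 and 246 to 366 (-0.55, exact p = 0.0238, adjusted 0.0476), with 8 of 8 lower, and the call was lost without N1, N2, N4, N6, T5 or T7.

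The summed epithelial markers moved with the group as well, though not all of their genes were higher. The 15 intestinal epithelium markers summed to 63345 to 103299 normalized counts in CTRL and 121294 to 282880 in D30 without overlap (log2 difference 1.02, exact permutation p = 0.00794, the smallest that 5 against 5 tumors allow, adjusted 0.0238). Lgals4 made up much of this sum, with 23598 to 65273 in CTRL and 57443 to 227377 in D30, and no gene of the list passed the test by itself, 5 of the 13 tested being lower in D30. Cdx1, Sis, Guca2a, Slc5a1 and Apoa4 had 25.2 normalized counts or less in every tumor, while Vil1, Cdh17 and Krt20 were high in every tumor. Which cells carried these markers, the cancer cells among them, was not tested, and the name of the list does not show intestinal cells. Cdx2 had 378 to 606 in CTRL and 388 to 1310 in D30 (limma log2 difference 0.83, adjusted p = 0.196). The log2 differences of the tested genes ran from -1.36 for Spink4 (limma adjusted p = 0.460) to 2.15 for Alpi (adjusted p = 0.108). The 6 ductal and tumor epithelium markers summed to 209890 to 335472 and 341271 to 475520 (0.74, exact p = 0.00794, adjusted 0.0238). Of these 6, Epcam was the 1 lower in D30, at 85.1 ± 66.7 against 16.1 ± 26.1 normalized counts (SD, n = 5 each; limma log2 difference -3.17, adjusted p = 0.0990). As the mean of log2 levels over the genes, which weights each gene alike, the difference was 0.43 for the intestinal list (exact permutation test, adjusted p = 0.152) and 0.073 for the ductal list (adjusted p = 0.817). The 6 acinar markers summed to 268 to 52717 and 144 to 4729 (-2.10, exact p = 0.262, adjusted 0.262). The high CTRL sums were those of N6 (52717) and N2 (24542.5), against 268 to 2742 in N1, N4 and N5, so the CTRL tumors differed in acinar signal. The part of these cell types in the levels of Naip1, Casp1 and the other members was not tested. The intestinal sum was highest in T4, T2 and T1, while Naip1 was highest in T4, T2 and T7. Among the other lists, the ductal sum was highest in T5, T1 and T4, and the neutrophil sum in T5, T2 and N1. The macrophage sum was highest in T4, N1 and N2, the dendritic in N1, N4 and N6 and the acinar in N6, N2 and T4.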

How the data were processed

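The authors prepared strand-specific RNA-seq libraries from tumor RNA, and their processing notes name CASAVA, FastQC, Trim Galore, STAR 2.7.0e, DESeq2 and the build GRCm39, while the methods name hg38 as the reference and STAR's default parameters, and the paper's software list also names RSEM. How the counts were made, and whether by strand, is not given in the sources used here. The deposited values are a normalized signal, reads divided by 1 size factor per tumor, and 100% of them gave whole reads (tolerance 0.02 reads) once that step was undone. The N columns were taken as CTRL and the T columns as D30, the only other group, and 0 columns had no group. The labels' titles call the tumors PDX, while their source is KPC K8484. The tumors are separate, but which mouse each column is was not given.

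Identifiers were matched without their version to GENCODE M21 (94.1% of 55359). limma's test with a trend (limma 3.58.1, R 4.3.3) was run on log2(normalized count + 1) for genes with a mean of at least 1, p-values were adjusted by Benjamini-Hochberg over the 24560 genes, and an adjusted p under 0.05 was a call. A log2 difference on this scale understates the change of low genes. edgeR 4.0.16 and DESeq2 1.42.0 on recovered reads, other pseudocounts, filters and scalings, and each tumor left out were alternatives. Marker sums were compared by exact permutation tests (scipy 1.17.1), and promoters and coding bases were aligned with Biopython 1.88. Protein sequences were not used here, so the stretch of NAIP sequence shown was chosen over coding bases. The limma step was tested on simulated data. The members, lists, markers and tests were chosen with earlier results of these data known. The genes named are the 10 members, the NAIP pseudogenes, the 3 protein-coding neighbours on each side, in each role of the wider list the called genes and the 3 with the smallest p, and the 5 genes most like Naip1 by each measure. 1 item of the line's genotype is not reported here.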

Additional observations from a re-analysis of the deposited data

Results flagged for a closer look

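Among 32 groups of 5 tumors looked at, 2 held a value far from the other 4 by Dixon's criterion (critical value 0.71). Chance alone gives such a value in a share of groups, so nothing is read from finding 2. Nlrp3 in T5 was 291.9 normalized counts, against 56.5 to 69.9 in the other D30 tumors. The summed macrophage and monocyte markers in T4 were 77142 normalized counts, against 18326 to 26315 in the other D30 tumors. Lyz2 alone gave 46217 of the counts in T4, and Csf1r was lowest in that tumor. T5 also had the most neutrophil marker signal and T4 the only Y-linked reads, and the part of either in these values was not tested.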

How the results depend on the processing

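No paired analysis was possible because the numbers in the column names cannot be matched to the replicate numbers of the labels, so a fit with a replicate block was not run. The log2 difference of Naip1 ranged from 4.97 (without T4) to 5.84 over 18 alternatives, which is a description, as the gene was chosen on this contrast. The count over all genes was 678 (344 higher), 864 (240 higher) at library-size scaling, 707 (457 higher) with edgeR and 1833 (1082 higher) with DESeq2, and 279 (without N2) to 1573 (without T4) with 1 tumor left out, with 340 without N5, 332 without N6 and 433 without T7. The wider list had 6 calls (3 higher) at library-size scaling, 9 (7 higher) with DESeq2 and 1 to 8 with 1 tumor left out. It had 1 call without N2, N5, N6, T1 or T2, and 8 without T4. With 1 tumor left out, the dendritic difference was -0.64 to -0.44 and missed the threshold without N1, N2, N4, N6, T5 or T7, and that of the macrophage markers was -0.98 to -0.46, past the threshold only without T4. As a mean of log2 levels over the genes, the dendritic (-1.13), intestinal (0.43) and ductal (0.073) differences missed the threshold (adjusted exact permutation p of 0.0952, 0.152 and 0.817). Shared windows rose to 20.5%, 10.7%, 23.8% and 11.97% at 75 bases and to 31.5%, 19.1%, 36.2% and 21.5% at 50 bases for Naip1, Naip2, Naip5 and Naip6, as shorter windows match more often by construction. The cause of the other changes was not tested. The mean of log2 levels and the separate look at values without T4 were chosen after seeing the data. The CTRL level of Naip1 rests on 24 to 64 reads per tumor, which limits its ratio.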
